A study of Gallus gallus with 2 samples.

Results

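Core cardiac transcription factors are the DNA-binding proteins that switch on and shape the heart muscle programme in the embryo. The 10 genes followed here were chosen by name, with earlier results of these data known. They come from 3 protein families. The GATA genes are GATA4, GATA5 and GATA6, the T-box genes are TBX2, TBX3, TBX5 and TBX20, and the MADS-box genes are MEF2A, MEF2C and SRF. Each stood on 1 row of the deposited tables, and together they were 10 of 16737 genes. RNA was sequenced from hearts of chicken (Gallus gallus) embryos of brown leg horn eggs. The treated group received Spermine NONOate, a donor that releases nitric oxide (NO) and leaves the polyamine spermine, as a single dose of 20 µl at 10 µM into the air sac; the vehicle group received 20 µl of 1X PBS. Eggs had been kept at 37 °C for 24 h before the injection, and hearts were removed at 45 h; whether that counts from setting the eggs or from dosing is unclear in the labels. A single pool of 10 hearts gave the only library of each group, called the NO library and the control library below, so no difference has a replicate check and no test was possible. No group received spermine alone, so NO and spermine cannot be told apart.

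GATA factors bind DNA through zinc fingers and act in both heart muscle and the endoderm beneath it. T-box factors fall on opposite sides in the heart: in mouse embryos TBX5 and TBX20 take part in the programme of the beating chambers, whereas TBX2 and TBX3 hold chamber genes down in the atrioventricular canal and, for TBX3, in the conduction system. MADS-box factors bind A- and T-rich elements in muscle genes. MEF2 proteins act with GATA and bHLH partners, and SRF is directed to muscle genes by its coactivator myocardin or to growth-response genes by other partners.

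Of the 10 factors, 5 exceeded their control level by 1.5-fold or more in the NO library, 1 fell short of it by 1.5-fold or more, and 4 lay within 1.5-fold. The higher ones were TBX20, MEF2C, MEF2A, GATA4 and TBX5, and the lower one was TBX3. Among all 10824 genes averaging 1 FPKM or more (fragments counted per kilobase of transcript and relative to all mapped fragments of the library), 9.59% were higher by that much and 22.4% were lower by that much. Each difference is given as log2 of (FPKM + 1) in the NO library over the control library, with an interval that combines the deposited 95% intervals of both libraries. Fold differences between the libraries use FPKM + 1 too. The pseudocount understates both, strongly for genes near or under 1 FPKM in a library and less for the 10 factors. MEF2C was 2.21-fold higher with it and 2.39-fold without it, and MEF2A 1.97-fold and 2.03-fold. The factors' median difference was 0.59, against −0.11 for all measured genes, whose lower and upper quartiles were −0.52 and 0.22. A difference of 2-fold or more upward was seen for TBX20 and MEF2C, 2 of 10 factors, beside 3.65% of all genes. A downward one was seen for 0 of 10 factors, beside 10.3% of all genes. Which factors passed 2-fold upward depended on the pseudocount and the scaling. The deposited intervals of the libraries did not overlap for 8 of the 10 factors, which is near the 70.9% of all genes, so separate intervals do not set the factors off. With the libraries scaled by a trimmed mean or by the upper quartile, upward differences made up 41.5% and 44.6% of all those past 1.5-fold, against 30.02% as deposited, and the median of all genes moved up by 0.12 and 0.15.

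**Figure D1:**
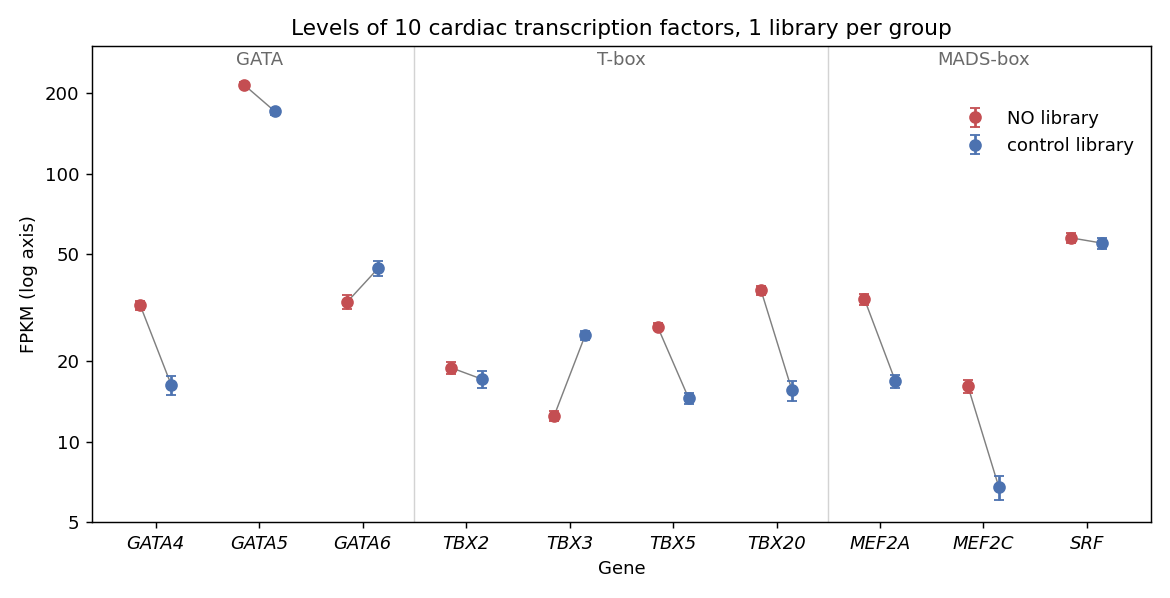
FPKM of the 10 factors on a log axis, with the NO library left of the control library for each gene; bars are the deposited 95% intervals of 1 library each, and grey lines join the 2 values of a gene. GATA4, TBX5, TBX20, MEF2A and MEF2C are higher in the NO library, TBX3 and GATA6 are lower, and SRF and TBX2 nearly coincide.

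The GATA genes differed in direction. GATA4, an activator of contractile and natriuretic peptide genes (ENSGALG00000016662), lies on chromosome 3 of galGal4 from 106954748 to 106976693. Its level was 32.2 FPKM (95% interval 30.9 to 33.6) in the NO library and 16.3 FPKM (14.95 to 17.6) in the control library. The log2 difference was 0.95 (0.82 to 1.07), or 1.93-fold higher, and it was the only GATA member past 1.5-fold. GATA5, which acts in heart muscle, endocardium and endoderm (ENSGALG00000005352, chromosome 20, 8368251 to 8377966), was at 215 FPKM (211 to 220) in the NO library and 171 FPKM (166 to 176) in the control library. It was 1.26-fold higher, with a log2 difference of 0.33 (0.28 to 0.38). GATA5 was the most abundant of the 10 factors in both libraries. GATA6, a factor of heart precursors and of endoderm (ENSGALG00000014976, chromosome 2, 102302371 to 102315684), was at 33.2 FPKM (31.3 to 35.1) in the NO library and 44.4 FPKM (41.5 to 47.3) in the control library. That is 1.33-fold lower, with a log2 difference of −0.41 (−0.53 to −0.28), which lay below the median of all genes.

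The T-box genes held both the factor with the highest difference and the one with the lowest. TBX20, a factor of chamber muscle and endocardium (ENSGALG00000012151, chromosome 2, 47818323 to 47850665), was at 36.7 FPKM (35.2 to 38.3) in the NO library and 15.5 FPKM (14.2 to 16.8) in the control library. It was 2.29-fold higher, a log2 difference of 1.19 (1.07 to 1.32), and stood at percentile 97.3 of all differences. TBX5, the gene mutated in Holt-Oram syndrome of the human heart and forelimb (ENSGALG00000008253, chromosome 15, 12309820 to 12352293), was at 26.9 FPKM (26.1 to 27.6) in the NO library and 14.5 FPKM (13.9 to 15.2) in the control library. Its log2 difference was 0.84 (0.77 to 0.92), which is 1.79-fold higher. TBX3, a repressor of chamber genes (ENSGALG00000008250, chromosome 15, 12207814 to 12219746), was at 12.5 FPKM (11.9 to 13.02) in the NO library and 24.9 FPKM (23.9 to 25.9) in the control library. It was 1.92-fold lower, with a log2 difference of −0.94 (−1.03 to −0.86), at percentile 11.4 of all differences. TBX2, the other repressor (ENSGALG00000023577, chromosome 19, 7630833 to 7638493), was at 18.9 FPKM (17.95 to 19.8) in the NO library and 17.1 FPKM (15.9 to 18.3) in the control library; these intervals overlapped, and the log2 difference was 0.14 (0.02 to 0.25). Of these repressors only TBX3 was past 1.5-fold.

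Both MEF2 genes were higher, while SRF was nearly level. MEF2C, needed in mouse for looping and growth of the heart tube (ENSGALG00000014645, chromosome Z, 60141410 to 60260421), was at 16.1 FPKM (15.2 to 17.0) in the NO library and 6.74 FPKM (6.05 to 7.44) in the control library. It was 2.21-fold higher, with a log2 difference of 1.14 (0.995 to 1.29), and was the least abundant of the 10 factors in the control library. MEF2A, a close relative with broader expression (ENSGALG00000007100, chromosome 10, 16525294 to 16575687), was at 34.02 FPKM (32.5 to 35.6) in the NO library and 16.8 FPKM (15.9 to 17.7) in the control library. Its log2 difference was 0.98 (0.88 to 1.08), or 1.97-fold higher. SRF, serum response factor (ENSGALG00000013255, chromosome 3, 4344802 to 4355028), was at 57.6 FPKM (54.97 to 60.2) in the NO library and 55.05 FPKM (52.3 to 57.8) in the control library. These intervals overlapped, and the log2 difference of 0.06 (−0.03 to 0.16) spans 0.

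**Figure D2:**
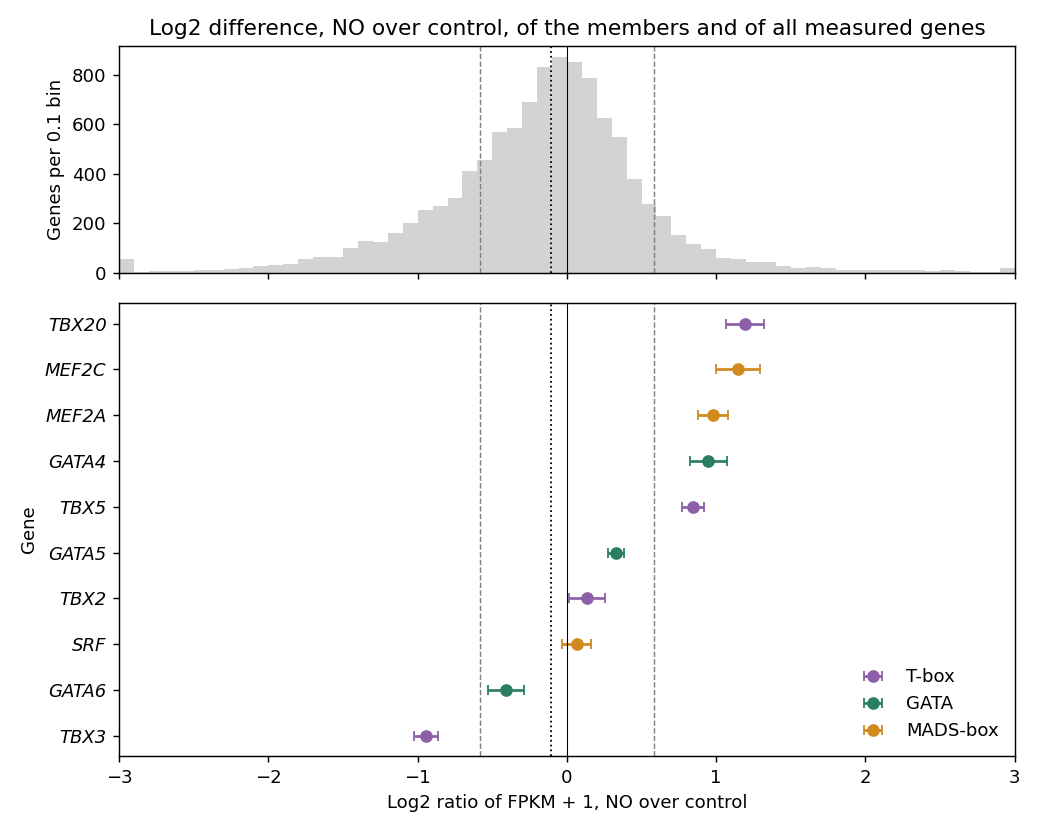
Upper panel: counts of 10824 measured genes in bins of their log2 ratio of FPKM + 1, NO over control, with values beyond 3 in the end bins. Lower panel: the same ratio for the 10 factors, coloured by family, with bars for the combined 95% intervals; the dotted line marks the median of all genes, −0.11, and the dashed lines mark 1.5-fold. TBX20, MEF2C, MEF2A, GATA4 and TBX5 lie right of the upper dashed line and TBX3 left of the lower one.

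The 5 higher factors were the less abundant ones of the control library. There they lay between 6.74 and 16.8 FPKM, and the other 5 lay between 17.1 and 171 FPKM. The control level is the denominator of the difference, so a low control level favours a high difference by construction. At the boundary the control intervals of MEF2A and TBX2 overlapped. In the NO library the 5 higher factors lay between 16.1 and 36.7 FPKM. The spread between the most and the least abundant factor was 17.3-fold in the NO library and 25.4-fold in the control library. FPKM is scaled by transcript length, so levels of different genes can be set side by side, but only roughly. Other sources of bias between genes were not examined.

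The order of the levels changed below the first 2 places. In the NO library it ran GATA5, SRF, TBX20, MEF2A, GATA6, GATA4, TBX5, TBX2, MEF2C and TBX3. In the control library it ran GATA5, SRF, GATA6, TBX3, TBX2, MEF2A, GATA4, TBX20, TBX5 and MEF2C. Neighbouring intervals overlapped from TBX20 down to GATA4 in the NO library and from TBX2 down to TBX5 in the control library. The order of adjacent genes within those runs is not resolved by the intervals. Some genes further apart are: TBX20 lay clear above GATA6 and GATA4 in the NO library. In the control library TBX2 and MEF2A lay clear above TBX5. TBX3 was the lowest of the 10 in the NO library, and in the control library it stood in place 4. Among all measured genes, 40.4% were above TBX3 in the NO library and 25.5% in the control library, whereas above MEF2C there were 33.6% in the NO library and 62.8% in the control library.

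Shares within a family do not depend on how the 2 libraries are scaled. TBX3 made up 13.1% (95% interval 12.6 to 13.7) of the summed FPKM of the 4 T-box factors in the NO library and 34.6% (33.3 to 35.8) in the control library. TBX20 made up 38.7% (37.6 to 39.8) in the NO library and 21.5% (20.02 to 23.03) in the control library. The first place among these T-box genes therefore passed to TBX20. TBX5 stood at 28.3% in the NO library and 20.2% in the control library, and TBX2 at 19.9% in the NO library and 23.7% in the control library. As a ratio, TBX3 was at 0.464 times the level of TBX5 (0.440 to 0.489) in the NO library and at 1.71 times (1.61 to 1.82) in the control library.

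GATA5 held most of the GATA sum in both libraries, at 76.7% (75.9 to 77.4) in the NO library and 73.8% (72.7 to 74.999) in the control library. The remainder shifted between the other GATA genes. GATA4 made up 11.5% (11.01 to 11.96) in the NO library and 7.02% (6.46 to 7.57) in the control library, and GATA6 made up 11.8% (11.2 to 12.5) in the NO library and 19.2% (18.1 to 20.3) in the control library. GATA4 was thus at 0.971 times the level of GATA6 (0.904 to 1.04) in the NO library, an interval that spans 1, and at 0.366 times (0.330 to 0.406) in the control library. Among the MADS-box members, SRF made up 53.5% (52.02 to 54.9) in the NO library and 70.1% (68.6 to 71.5) in the control library. MEF2A and MEF2C kept a closer balance: MEF2A was at 2.11 times the level of MEF2C (1.97 to 2.27) in the NO library and 2.49 times (2.21 to 2.79) in the control library.

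**Figure D3:**
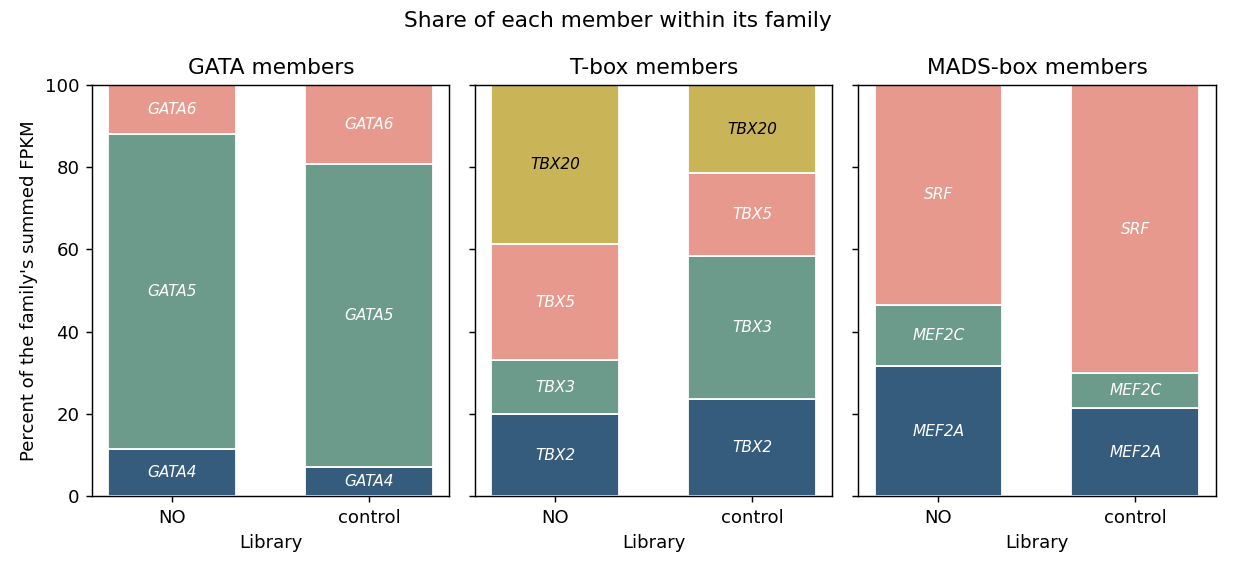
Share of each factor in the summed FPKM of its family, in percent, with the NO library left of the control library in each panel. The TBX3 segment is 13.1% in the NO library and 34.6% in the control library, and the GATA6 segment is 11.8% in the NO library and 19.2% in the control library.

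Other genes of the same families, and the proteins these factors work with, are read against the shares of all genes past 1.5-fold, 9.59% upward and 22.4% downward. Of the GATA list, 4 of 5 genes were measured; 0 lay 1.5-fold or more above and 2 lay 1.5-fold or more below the control library. GATA2, a factor of blood and endothelial precursors, was at 4.83 FPKM in the NO library and 17.8 FPKM in the control library, and ZFPM1 (FOG-1), a GATA cofactor, at 27.6 FPKM in the NO library and 45.2 FPKM in the control library. ZFPM2 (FOG-2), the cofactor that binds GATA4 in the heart, was at 5.99 FPKM in the NO library and 4.22 FPKM in the control library, which gives 0.42 (0.31 to 0.53) in log2. GATA3 had a log2 difference of −0.55 (−0.68 to −0.43). Of the other T-box genes 10 of 14 were matched and 4 were measured, with 0 past 1.5-fold upward and 2 past it downward. These 2 were Tbx22, at 0.427 FPKM in the NO library and 8.88 FPKM in the control library, and T (brachyury), the factor of the primitive streak and notochord, at 1.32 FPKM in the NO library and 7.69 FPKM in the control library. MGA and TBX18 had log2 differences of −0.23 and −0.04.

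Partners of the MADS-box factors went both ways. Of 13 listed, 10 were measured, 3 of them past 1.5-fold upward and 2 downward, and the median log2 difference was 0.06. The downward count is near the 22.4% of all genes and does not set the partners apart, and 9.59% of all genes were past 1.5-fold upward. HDAC9, a histone deacetylase that binds and restrains MEF2, was at 7.59 FPKM (95% interval 7.20 to 7.99) in the NO library and 2.91 FPKM (2.59 to 3.22) in the control library, a log2 difference of 1.14 (1.003 to 1.27). HDAC7, another deacetylase of that class, was 1.95-fold lower, with −0.97 (−1.07 to −0.86). Of the SRF coactivators, MYOCD (myocardin) was at 12.1 FPKM in both libraries, whereas MKL1 was at 3.25 FPKM in the NO library and 11.4 FPKM in the control library. MKL2, its relative, was at 10.2 FPKM in the NO library and 5.78 FPKM in the control library. FHL2, a LIM protein that binds SRF, had a log2 difference of 0.82 (0.62 to 1.02).

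The remaining cardiac transcription factors on a list of 23 also went in both directions. Of 17 measured, 5 were past 1.5-fold upward and 3 downward, and the median was 0.15. Beside the 9.59% upward and 22.4% downward of all genes, the downward count does not set the list apart. SMYD1, a muscle histone methyltransferase, was at 112 FPKM in the NO library and 23.8 FPKM in the control library. SHOX2, a factor of the pacemaker region, was at 3.87 FPKM (3.04 to 4.70) in the NO library and 0.155 FPKM (0 to 0.375) in the control library. The ventricular factor IRX4 was at 68.3 FPKM in the NO library and 20.7 FPKM in the control library. HOPX, a small homeodomain protein, was at 2.97 FPKM in the NO library and 0.504 FPKM in the control library. The 3 lower genes were HAND1, CITED2 and TCF21. HAND1, a bHLH factor of the heart and lateral mesoderm, was the most abundant gene of the list in both libraries, at 150 FPKM in the NO library and 302 FPKM in the control library, a log2 difference of −1.01. CITED2, a transcriptional cofactor, had −1.37, and TCF21, an epicardial factor, −0.84. NKX2-5, the partner of GATA4 and TBX5, was at 95.2 FPKM in the NO library and 79.99 FPKM in the control library, with a log2 difference of 0.25.

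Genes known as targets of these factors differed unevenly between lists, which were chosen with earlier results of these data known. Over all genes 9.59% were past 1.5-fold upward and 22.4% downward. Of the chamber muscle genes regulated by GATA4, TBX5 and their partners, 15 of 16 measured were past 1.5-fold upward and 1 downward; the median was 2.501. PLN, the inhibitor of the sarcoplasmic calcium pump, was at 136 FPKM in the NO library and 4.77 FPKM in the control library, and the light chains MYL2 and MYL3 and the Z-disc protein CSRP3 were 8.10-fold, 9.02-fold and 7.85-fold higher. All 15 lay above TBX20, the factor with the highest difference. GJA1, connexin 43, was the exception, with a log2 difference of −0.64. TNNT2, TNNC1, TNNI1, MYL2, MYL3, ACTC1, MYH7, RYR2, PLN and CSRP3 of this list are also on the heart muscle marker list below. The counts of these lists are therefore not separate observations. Of the MEF2 targets, 8 of 9 measured were past 1.5-fold upward and 1 downward, and the median was 2.16; JUN, a growth-response gene, was the lower one, at −1.57. Among the higher ones were the muscle proteins MYOZ2, at 8.25 FPKM in the NO library and 0.565 FPKM in the control library, HSPB7, at 10.5 FPKM in the NO library and 1.14 FPKM in the control library, and XIRP1, at 45.7 FPKM in the NO library and 8.37 FPKM in the control library.

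The list of SRF targets, which also holds SRF itself, spread in both directions. Its 22 measured genes ran from −1.68 to 2.57, with a median of 0.06. Of these, 5 were past 1.5-fold upward, 4 downward and 13 neither. Over all genes 9.59% were past it upward and 22.4% downward, so the downward count does not set the list apart. The higher ones included muscle genes: FHL1 had a log2 difference of 2.57, the tropomyosin TPM4 one of 2.28 and skeletal actin ACTA1 one of 1.64. FOS, a growth-response gene, was at 6.62 FPKM in the NO library and 23.4 FPKM in the control library. Muscle genes and growth-response genes were also among the 13 within 1.5-fold, such as MYH11 (0.06) and EGR1 (−0.44). Cytoplasmic actins ACTB and ACTG1 had differences of −1.14 and −1.09. Genes of the atrioventricular canal and pacemaker region, where TBX2 and TBX3 act, had a median of −0.74, with 7 of 13 measured past 1.5-fold downward and 2 upward. MSX1 was at 8.71 FPKM in the NO library and 134.5 FPKM in the control library; MYCN had −1.44 and TWIST1 −1.70. MSX1, TWIST1 and SNAI2 of this list are also on the neural crest list. SHOX2 was the highest, at 2.08, and GJC1, connexin 45, was the other gene past 1.5-fold upward, at 0.63. BMP2, HAS2 and TGFB2, which act in the cushions, lay within 1.5-fold, at −0.26, 0.22 and 0.28. The remaining lower genes of the list were BMP4, MSX2, SNAI2 and CACNA1G, at −0.88, −0.88, −0.74 and −1.19.

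**Figure D4:**
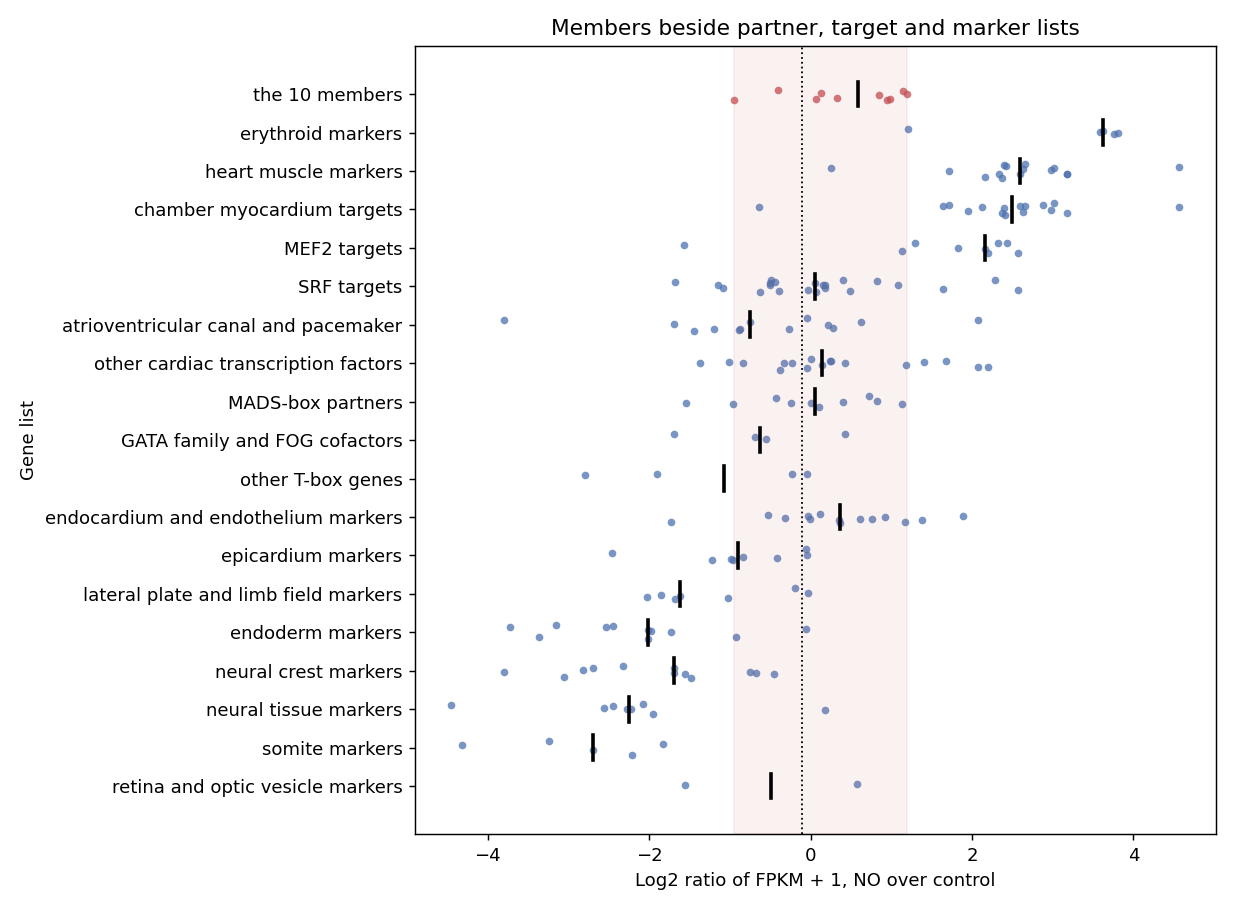
Log2 ratio of FPKM + 1, NO over control, for the 10 factors (red) and for measured genes of 18 lists (blue), with a black bar at each median; the shaded band spans the 10 factors, −0.94 to 1.19, and the dotted line is the median of all genes. Heart muscle, chamber and erythroid genes lie mostly right of the band, and markers of endoderm, neural tissue, neural crest and somites mostly left of it.

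Markers of the labelled tissue were present in both libraries, and markers of several tissues differed alongside the factors. The counts below stand beside 9.59% of all genes past 1.5-fold upward and 22.4% downward. Counts cover measured genes, whereas summed FPKM covers all matched genes of a list, also those averaging under 1 FPKM. All 15 matched heart muscle markers were measured; their summed FPKM was 17098 in the NO library and 2595 in the control library, and 14 of 15 were past 1.5-fold upward, around a median of 2.60. Of 14 measured endocardial and endothelial markers, 6 were past 1.5-fold upward and 1 downward (summed FPKM 305 NO, 212 control). Of 5 measured erythroid markers, 5 were past 1.5-fold upward (3404 NO, 262 control). Endoderm markers, the tissue that shares GATA4, GATA5 and GATA6 with the heart, had 10 of 11 measured genes past 1.5-fold downward (345 NO, 1341 control). Neural tissue had 7 of 8 lower (58.02 NO, 281 control), neural crest 11 of 12 (51.7 NO, 272 control), and somites 5 of 5 (20.2 NO, 155 control). Lateral plate and limb field markers, tissues that also express TBX2, TBX3 and TBX5, had 5 of 7 lower (96.1 NO, 199 control). Epicardial markers had 5 of 8 lower (56.4 NO, 80.6 control). Of only 2 measured retinal markers 1 was lower (9.02 NO, 14.5 control), too few to set against the share of all genes. Of the measured markers, ZIC1 (neural) and UPK3B (epicardial) were at 0 in the NO library. HBZ in the control library and MESP2 and HOXC6 in the NO library were also at 0. These averaged under 1 FPKM and are not among the counts. The interval of HBZ in the NO library (0 to 0.250) reaches 0, so its zero shows no difference. The control intervals of MESP2 (0.0955 to 0.687) and HOXC6 (0.111 to 0.557) lie above 0, at low levels. In bulk RNA, fewer cells of a type and less RNA per cell cannot be told apart, and the part of these tissues in the factors' values was not tested.

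The depth behind each factor can be read from its interval, which reaches 2 SD to each side. Squaring FPKM over SD estimates how many fragments a gene drew, if counting is the sole error: 1228 to 9238 per factor in the NO library and 380 to 4287 in the control library. Over 1214 low genes, each fragment counted for 1.63 times as much FPKM in the control library as in the NO library, which makes the control library the shallower one. For 8 factors the same quotient lay between 1.54 and 1.84. For SRF it was 1.11 and for MEF2A 0.688, so the intervals of these 2 do not follow counting error alone and their fragments are only rough.

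TBX3 and TBX5 are neighbours on chromosome 15, 90.1 kb apart, and lay on opposite sides of 0. The nearest gene with a mean of at least 1 FPKM was taken on each side of every factor, which gave 18 genes outside the 10. Of these, 0 were past 1.5-fold upward and 4 downward, beside 9.59% upward and 22.4% downward of all genes, so counts this small do not set the neighbours apart. The 4 flank GATA4 (FDFT1), MEF2A (LYSMD4) and SRF (PTK7 and ENSGALG00000008594), with log2 differences of −1.09, −0.99, −1.54 and −0.999. SRF is the most closely flanked, with PTK7 2.72 kb away at 48.1 FPKM in the NO library and 142 FPKM in the control library. The medians of the factors' own chromosomes ran from −0.26 on chromosome 19, which holds TBX2, to −0.02 on chromosome 2, which holds GATA6 and TBX20. MEF2C is on the sex chromosome Z, whose 492 measured genes had a median of −0.06.

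**Figure D5:**
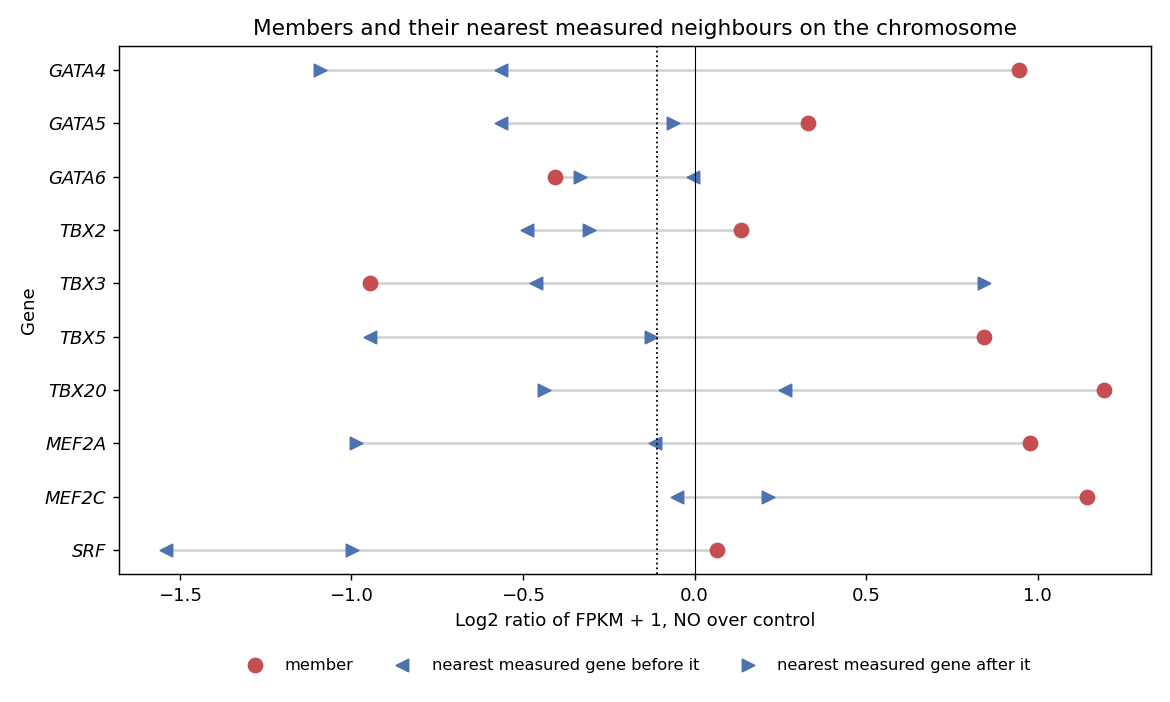
Log2 ratio of FPKM + 1, NO over control, for each factor (red circle) and for the nearest gene with a mean of at least 1 FPKM at lower (left-pointing triangle) and higher (right-pointing triangle) positions; the dotted line is the median of all genes. TBX3 and TBX5 are each other's neighbour and lie at −0.94 and 0.84, and the other neighbours lie between −1.54 and 0.26.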

How the data were processed

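The series design text and the submitters' processing notes name STAR 2.4.2a for alignment, galGal4 with Ensembl release 81 as the genome, and Cufflinks 2.2.1 for expression. They also name bcl2fastq and Cuffdiff, without a version. The deposited values are the authors' FPKM with 95% interval bounds, 2 SD on each side, for 17108 genes. No other scaling between libraries is recorded, and whether Cuffdiff applied one to these values was not examined. FPKM summed to 536333 in the NO library and 487268 in the control library, and implied fragments to at least 28802333 in the NO library and 18262183 in the control library. The tables were merged on the Ensembl identifier, and FPKM was summed over rows of 1 symbol. Genes averaging 1 FPKM or more over both libraries were kept. Computation used Python 3.11.15, pandas 2.3.3 and numpy 2.4.6; the functions were tested on simulated data. Starts are printed counted from 1, since 9 of 11 mitochondrial gene spans were multiples of 3 when deposited starts were read as counted from 0, and 0 of 11 otherwise. All members, and up to 4 genes per list by size of difference, were to be named. NKX2-5, HAND1, CITED2, TCF21, MYOCD, MKL2, JUN, ACTB, ACTG1, MYH11, EGR1, GJA1, GJC1, BMP2, BMP4, HAS2, TGFB2, SNAI2, MSX2, CACNA1G and genes beside the members were added after their values were seen. Symbols were matched without regard to case; GATA1, HAND2, NPPA, MYL7 and some other listed names were not matched and are not analysed here. Some genes are on more than 1 list. The members and lists were chosen with earlier results of these data known. Alternatives were other pseudocounts, scalings, folds and row handling.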

Additional observations from a re-analysis of the deposited data

How the results depend on the processing

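With 1 pool and 1 library per group, the intervals cover estimation within a library and say nothing of the difference between pools. Over 6 alternatives, 0 of 60 values of single factors changed sign. A pseudocount added to both libraries cannot change a sign. The other alternatives moved every factor upward, so only GATA6 and TBX3, with negative differences, could have changed sign. Of the 60 values, 30 stayed inside the factor's main interval and 30 left it. The 6 alternatives include setting each factor against its chromosome's median, chosen after seeing the data, and leave out the highest row of a symbol. The counts of 5 factors past 1.5-fold upward and 1 downward were the same with pseudocounts of 0.1 and 5, under the scalings tried, and when the nearer interval bound had to pass 1.5-fold. At 2-fold the counts were 2 and 0 with the main pseudocount and scaling, but the factors passing upward varied with both. MEF2A also passed with a pseudocount of 0.1 (log2 1.02), and MEF2C fell short with one of 5 (0.85). With libraries scaled without mitochondrial, erythroid and most abundant genes MEF2A passed as well (1.02), as it did against its chromosome's median (1.08). GATA4 (1.08) and MEF2A (1.11) also passed with trimmed mean scaling. With upper quartile scaling GATA4 (1.11), MEF2A (1.14) and TBX5 (1.004) did. The median of the factors, 0.59, became 0.72 with trimmed mean scaling, 0.75 with upper quartile scaling and 0.72 when each factor was set against its chromosome's median, an alternative chosen after seeing the data; both scalings raise every gene by construction. Over all 10824 genes, 1038 higher and 2420 lower became 580 and 1427 with a pseudocount of 5, which shrinks low genes by construction. They became 1243 and 2793 with a pseudocount of 0.1, and 1382 and 1948 with trimmed mean scaling. With upper quartile scaling they became 1487 and 1844, and without mitochondrial, erythroid and most abundant genes 1139 and 2253. No share of all genes is given for the nearer bound, or for 2-fold under the alternatives, so those counts of factors have no background. Taking the highest row of a symbol, or no filter, could not change the factors' values or family shares, since every factor has 1 row and averages over 1 FPKM. No paired analysis was possible because each group has 1 library.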

Other observations

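GATA5 and GATA6 each lie on the same chromosome as, and near, a pair of muscle microRNA hairpins, genes that heart muscle is known to express. On chromosome 20, gga-mir-1a-1 lies 94.3 kb and gga-mir-133a-2 105.5 kb from GATA5; on chromosome 2, gga-mir-1a-2 lies 122.3 kb and gga-mir-133a-1 125.4 kb from GATA6. MIB1, the nearest measured gene on the hairpin side of GATA6, lies 94.9 kb from GATA6, closer than its hairpins. MIB1 was at 28.9 FPKM in the NO library and 29.0 FPKM in the control library. All 4 hairpins were listed at 0 in both libraries. The hairpins are short, with gga-mir-1a-1 running from 8472265 to 8472335. Whether genes this short could be detected was not tested, so the zeros do not show absence. TBX4, a hindlimb factor 20.1 kb from TBX2, was at 0.129 FPKM (95% interval 0.0456 to 0.212) in the NO library and 0.135 FPKM (0.0248 to 0.245) in the control library, against 18.9 FPKM in the NO library and 17.1 FPKM in the control library for TBX2. Of the other T-box genes under 1 FPKM on average, EOMES was at 0.197 FPKM in the NO library and 1.13 FPKM in the control library. TBX6 was at 0.191 FPKM in the NO library and 0.550 FPKM in the control library. TBX15 was at 0.0106 FPKM (0 to 0.0318) in the NO library and 0.202 FPKM (0.0800 to 0.323) in the control library. TBR1 was at 0.0164 FPKM (0 to 0.0491) in the NO library and 0.326 FPKM (0.130 to 0.523) in the control library. TBX19 was at 0.266 FPKM (0.156 to 0.375) in the NO library and 0.108 FPKM (0.0199 to 0.197) in the control library, and these intervals overlapped.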
